A study of Mus musculus with 4 samples.

Results

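Cells that run an active metabolism must neutralise the peroxides and superoxide they make, and 32 genes that do this work were followed in lung group 2 innate lymphoid cells (ILC2s), lymphocytes that make type 2 cytokines and lack antigen receptors. The set holds the transcription factor NRF2 and 2 of its target enzymes, the glutathione, thioredoxin and peroxiredoxin systems, superoxide dismutases and catalase, enzymes of the pentose phosphate pathway, the ferritin chains and 3 selenoproteins of the endoplasmic reticulum. Members were the columns of the deposited table that carry one of the 32 symbols, and all 32 were found among 17187 genes. ILC2s sorted from lungs of wild-type BALB/c mice were compared in culture after 18 hours with either an isotype control antibody or an antibody against CD226, a costimulatory receptor, with 2 libraries in each group. The antibody dose was 5 µg/mL, worded so that it may or may not cover the isotype control. The treatment column inside the table calls the control libraries PBS, and the design text speaks of treated mice, so the grouping here follows the sample labels. Nothing in the labels ties the 2 libraries of a group to separate mice or separate cultures, so a p-value here reflects library-to-library spread alone, and that spread may be technical.

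NRF2, encoded by Nfe2l2, is held at a low protein level by KEAP1, which presents it to the CUL3 ubiquitin ligase for destruction. Oxidants and electrophiles modify KEAP1, NRF2 accumulates, and with small MAF proteins it binds antioxidant response elements in genes for glutathione synthesis, thioredoxin reductase, peroxiredoxin 1, the NADPH-producing pentose phosphate enzymes and the ferritins. Because this switch works mainly on protein stability, the level of Nfe2l2 mRNA is not a measure of NRF2 activity, while its target transcripts are the usual readout. Glutathione and thioredoxin both draw their reducing power from NADPH, and ferritin stores iron in a form that cannot feed oxidant chemistry.

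Several members were matched to sequence features linked to their class. NRF2 with a small MAF protein recognises a core that is searched here as TGACNNNGC on both strands, a string that also contains the AP-1 site TGACTCA when its free bases begin with TCA. In the RefSeq table of promoter windows (build GRCm38.p6, 250 bases before to 50 after a start site), 28 of the 32 members were matched, and 9 of the 28 (32.1%) had the string in at least 1 window, against 14.0% of all 27025 genes in that table. The 9 were Nfe2l2, Gclm, Prdx1, Txnrd1, G6pdx, Sod1, Selenok and, after the start site, Srxn1 and Pgd. The other members, among them Hmox1, Nqo1, Gclc, Fth1 and Ftl1, had no match or were not in that table. Elements farther from a start site fall outside these windows. The stretches below sit before a start site of NRF2 itself and of genes of glutathione synthesis, peroxide removal, thioredoxin reduction and NADPH supply. Those of Sod1 and Selenok also sit before a start site and are not shown. Each stretch shown is written 5′ to 3′ on the strand that carries the string, with the 9 bases of the string in capitals. A match describes these letters and does not show binding.
Nfe2l2, chr2:75704885-75704913: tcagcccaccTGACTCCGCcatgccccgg
Gclm, chr3:122245413-122245441: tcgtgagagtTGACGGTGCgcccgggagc
Prdx1, chr4:116685456-116685484: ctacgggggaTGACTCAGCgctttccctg
Txnrd1, chr10:82859104-82859132: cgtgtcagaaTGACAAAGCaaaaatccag
G6pdx, chrX:74428919-74428947: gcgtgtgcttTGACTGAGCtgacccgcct
The string began 240 bases before the start site of the window in Nfe2l2, 134 in Gclm, 133 in Prdx1, 92 in Txnrd1 and 57 in G6pdx, counted to its end farther from the start. In Txnrd1 and G6pdx the string lies inside the annotated gene. These genes run from 82833951 to 82897712 (plus strand) and from 74409483 to 74429194 (minus strand). In Prdx1 the string read TGACTCAGC and so also held the AP-1 site. It was found on the gene's own strand in Nfe2l2 and on the opposite strand in Gclm, Prdx1, Txnrd1 and G6pdx.

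Counting Gpx1, Gpx4 and Txnrd1, the set includes 6 selenoproteins, proteins in which a UGA codon, otherwise a stop signal, is read as selenocysteine. The codon and the 12 bases on either side are shown from GENCODE M21 transcripts (GRCm38), 5′ to 3′ on the strand of the gene (minus in Selenon) with TGA in capitals and the position of that codon, because Selenon, the member that differed most between the groups, belongs to this class.
Gpx1, chr9:108339451-108339453: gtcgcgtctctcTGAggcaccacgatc
Gpx4, chr10:80054737-80054739: gtggcctcgcaaTGAggcaaaactgac
Txnrd1, chr10:82896037-82896039: cagtctggctgcTGAggttaagcccca
Selenon, chr4:134542338-134542340: gaccagtcctgcTGAggttccgggcgg
Selenos, chr7:66088844-66088846: tcatctggcggcTGAaactaagactct
Selenok, chr14:29973440-29973442: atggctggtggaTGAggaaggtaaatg
The codon lies in the first of 2 exons of the Gpx1 transcript and in exon 9 of 12 in Selenon. In Selenos and Txnrd1 it lies in the last exon, 6 of 6 and 15 of 15.

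The deposited values are normalised read counts, and the estimated depth of a library was between 12433729 and 17847329 reads. All 12 ILC2 markers, among them Gata3, Il1rl1 and Il5, were above 0 in every library. Their sum was 166712 and 170536 in isotype and 161483 and 140492 in anti-CD226 libraries. The 6 T cell markers found were also above 0 in every library. Cd226 itself stood at 942 and 1042 in isotype and 1001 and 985 in anti-CD226 libraries; the antibody binds the protein, so this level does not check the treatment. Anti-CD226 replicate 2 stood apart in 2 respects that touch the members. Short transcripts were lower in it: the median log2 deviation from the mean of the 4 libraries was -0.40 in the decile of shortest transcripts (median 577.5 bases) and 0.32 in the decile of longest (median 6806 bases), against 0.23 and -0.20 in isotype replicate 2. The summed level of 16 macrophage markers in the table was 2277 in it, against 728 in the other anti-CD226 library and 298 to 344 in the isotype libraries. Each result below is therefore given by library.

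None of the 32 members passed the test over all genes (limma, adjusted p below 0.05), where 0% of the 13010 genes tested passed, and the members' adjusted p lay between 0.982 and 0.995. At an unadjusted p below 0.05 there was 1 member, Selenon, higher in anti-CD226, against 2.37% of all genes in either direction and 1.55% in that direction; no member was lower at that p, against 0.815% of all genes. In mean, 9 members were higher and 23 lower in anti-CD226 libraries, where 51.1% of all genes were higher, and under upper quartile scaling the split was 5 and 27, where 44.4% of all genes were higher and their median was -0.03. The median log2 fold change was -0.07 over the members and 0.0066 over all genes. The 2 groups did not overlap in 4 members, 3 higher and 1 lower, against 26.8% of all genes (13.8% higher and 13% lower). The smallest two-sided p that an exact permutation test of 2 against 2 libraries allows is 0.333, and p-values here come from limma.

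**Figure D1:**
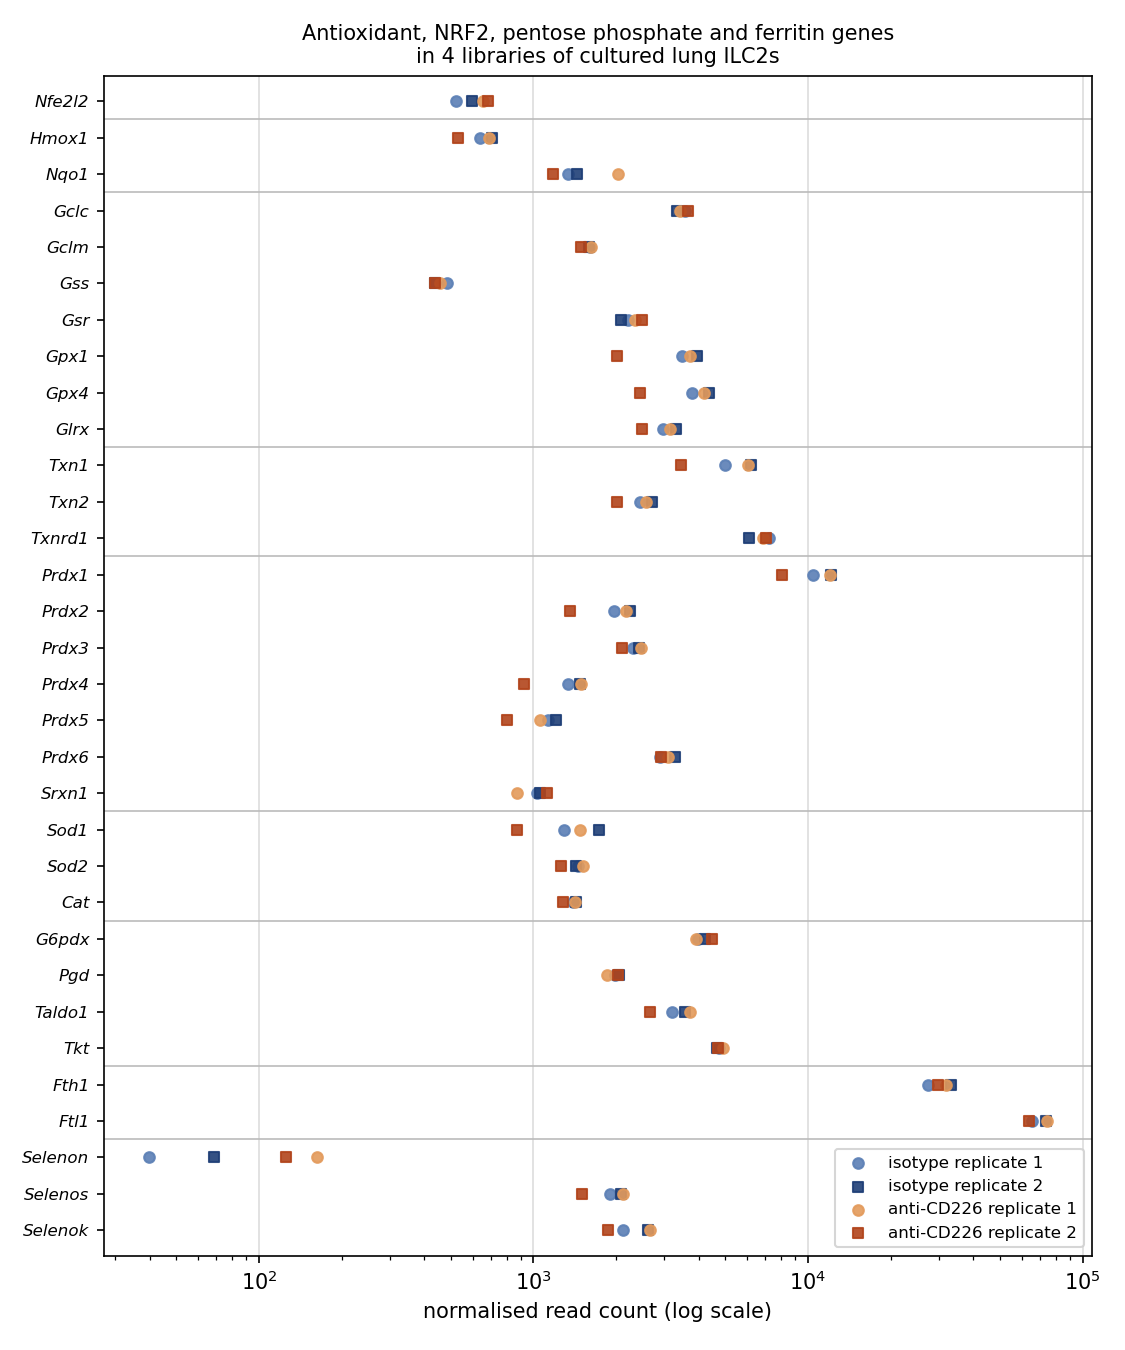
Normalised read count (log axis) of each of the 32 members in the 4 libraries, with blue for isotype, orange for anti-CD226, circles for replicate 1, squares for replicate 2 and grey lines between functional groups. In 20 members the square of anti-CD226 replicate 2 is the lowest point, and Selenon is the member with the widest gap between the colours.

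The anti-CD226 replicates differed in the direction of the set. Against the isotype mean, the members' median was -0.18 on the log2 scale in replicate 2 of anti-CD226 and 0.05 in replicate 1. In replicate 2, 23 of 32 members were below the isotype mean, against 49% of all genes, and in replicate 1 the count was 9 of 32, against 46.4%. Replicate 2 held the lowest value of the 4 libraries in 20 members, against 37.2% of all genes. In 28 of the 32 members the anti-CD226 replicates differed by more than the group means did. The share of all genes that did so was not computed, so this count is not read as particular to the members. Without anti-CD226 replicate 2, 23 members were higher and 9 lower, with a median of 0.05.

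Leaving out 1 library in turn moved the number of members that passed. It was 0 without isotype replicate 1 (0.0922% of all genes passed), 1 without isotype replicate 2 (0.131%), 8 without anti-CD226 replicate 1 (12.6%) and 1 without anti-CD226 replicate 2 (0.407%). The 8 were Selenon in the higher direction and Gpx1, Gpx4, Txn1, Prdx2, Prdx4, Prdx5 and Sod1 in the lower, all of which lie in the 16 members with shorter transcripts apart from Selenon. Where 1 library is left in a group, the fit gives it the spread found in the other group.

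The low values of that library were unevenly spread over transcript lengths, a property that the choice of members did not use. The members' annotated transcripts had a median of 1577 bases, against 2468 for all genes tested. Split at that median, a division chosen after the values were seen, anti-CD226 replicate 2 held the lowest value in 15 of the 16 shorter members and in 5 of the 16 longer ones. Over all genes tested, of any length, anti-CD226 replicate 2 was lowest in 37.2%. The share among genes of like length was not computed. The shorter members stood at a median of -0.38 in that library against the isotype mean, and the longer ones at 0.0088. Across the 32 members, Spearman's rho between transcript length and the deviation from the mean of the 4 libraries was 0.74 in anti-CD226 replicate 2, -0.41 in anti-CD226 replicate 1, -0.80 in isotype replicate 2 and -0.03 in isotype replicate 1. Over the 12716 genes tested with a length, rho was 0.55, -0.38, -0.50 and 0.01 in the same order, so the trend was not particular to the members. The members share these libraries and the deviations of a gene sum to 0, so the values of rho are a description of relative trends. With each library's trend with length removed, the members' median in anti-CD226 replicate 2 was -0.10, and their median log2 fold change was -0.03. On that scale 5 members were higher and 3 lower without overlap, against 30.4% of all genes. How far the length trend accounts for any single member was not tested.

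**Figure D2:**
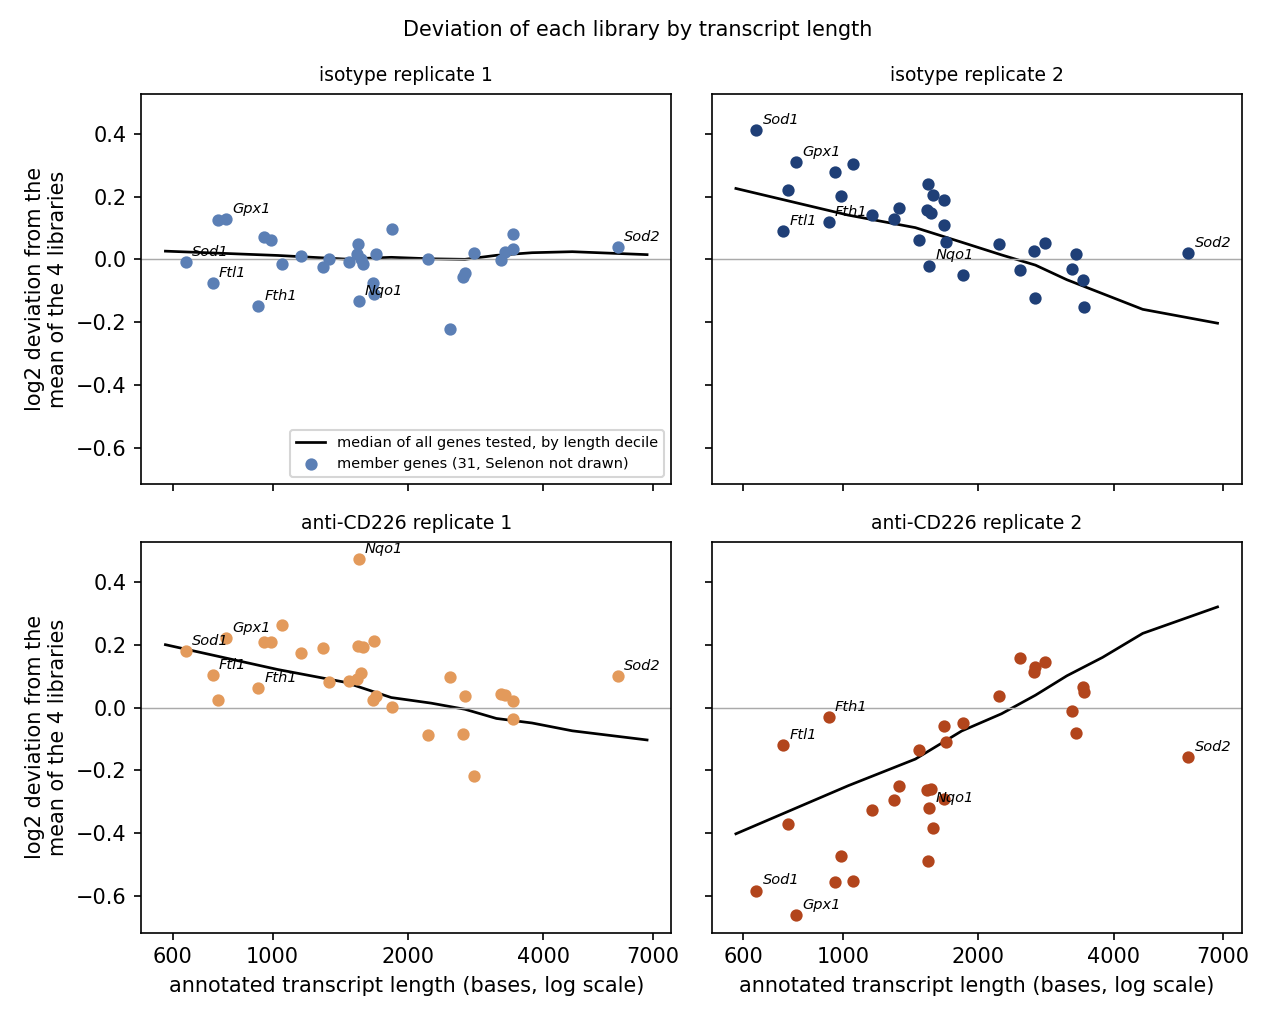
Deviation of each member from its mean over the 4 libraries (log2) against annotated transcript length (log axis), 1 panel per library. The black line joins the medians of all genes tested by length decile. Selenon was left out of the drawing. In anti-CD226 replicate 2 the line climbs from -0.40 to 0.32 and Gpx1 and Sod1 lie below it, while Fth1 and Ftl1 lie above it.

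Nfe2l2, the gene of NRF2, which lies on chromosome 2 from 75675513 to 75704641 (minus strand) of GRCm38, was one of the members whose groups did not overlap. It stood at 524 and 597 in isotype and 654 and 681 in anti-CD226 libraries. Both anti-CD226 libraries were above both isotype libraries, though the gap between the nearest libraries of different groups was smaller than that between the isotype replicates. The log2 fold change was 0.25 (SE 0.18), and the 95% interval ran from -0.15 to 0.66. It was 0.25 with the length trend removed.

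In the 2 classical NRF2 target enzymes the groups overlapped. Nqo1, a quinone reductase, stood at 1337 and 1445 in isotype and 2031 and 1174 in anti-CD226 libraries. Its highest and its lowest value were both in the anti-CD226 group. Hmox1, the heme oxygenase that releases iron from heme, stood at 637 and 705 in isotype and 687 and 531 in anti-CD226 libraries. The lowest of the 4 was anti-CD226 replicate 2, which had the highest sum of macrophage markers; macrophages are a known source of Hmox1, and their part in its level was not tested.

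Among regulators of NRF2, the adaptor Keap1 stood at 1517 and 1226 against 1292 and 1429.5, isotype before anti-CD226 libraries in this and the following pairs. Its ligase Cul3 stood at 330.4 and 354 against 1007 and 762. Both anti-CD226 values of Cul3 were above both isotype values, the log2 fold change was 1.35 (SE 0.20), and Cul3 did not pass over all genes (limma, adjusted p = 0.982). Leaving out 1 library, it passed without anti-CD226 replicate 1 (limma, adjusted p = 6.1e-05) and without anti-CD226 replicate 2 (1.6e-08), and its adjusted p was 0.174 without isotype replicate 1 and 0.070 without isotype replicate 2. The ratio of Cul3 to Keap1 reads, 2 genes of like transcript length, was 0.218 and 0.289 against 0.780 and 0.533. The MAF partner Mafk, with 777 and 733 against 734 and 770.4, and the competing repressor Bach1, with 36.5 and 33.2 against 46.3 and 26.5, had overlapping groups; Bach1 rests on 24 to 45 estimated reads. Of the 12 regulators and partners tested, 6 were higher and 6 lower with 0 past the adjusted threshold, and Cul3 was the only one at an unadjusted p below 0.05. Btrc, a receptor of another NRF2 ligase, had 201 and 206 against 233 and 293.

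Other NRF2 targets showed no common direction. Of 18 tested, 11 were higher and 7 lower; their median log2 fold change was 0.01, and 0 passed either threshold. Slc7a11, which imports cystine for glutathione synthesis, stood at 134 and 107 in isotype and 164 and 149 in anti-CD226 libraries. Both anti-CD226 libraries were above both isotype libraries. Of the 18 tested, 2 were higher and 1 lower without overlap, against 13.8% and 13% of all genes. The log2 fold change of Slc7a11 was 0.38, and 0.21 with the length trend removed. Ephx1, an epoxide hydrolase, stood at 28.7 and 34.0 against 14.4 and 20.9 and had the lower values in anti-CD226.

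Glutathione is built by glutamate-cysteine ligase, whose catalytic subunit is Gclc and whose modifier is Gclm, and by the synthetase Gss. Gclc stood at 3575 and 3340.1 in isotype and 3409 and 3655 in anti-CD226 libraries. Gclm stood at 1606 and 1597 in isotype and 1623 and 1492 in anti-CD226 libraries, and Gss at 486 and 439.6 against 455 and 439.8. The groups overlapped in all 3; the 95% interval of the log2 fold change was -0.34 to 0.40 for Gclc and -0.42 to 0.33 for Gclm. The ratio of Gclc to Gclm was 2.23 and 2.09 against 2.10 and 2.45. Gclm overlaps Gm17494 on the other strand, which had 1067 and 1298 against 1397 and 719 and could share reads with it, since the use of strand in counting is not given.

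Gsr, the reductase that regenerates glutathione with NADPH, stood at 2209 and 2087 in isotype and 2336 and 2486 in anti-CD226 libraries. The anti-CD226 values were both above the isotype values. The log2 fold change was 0.17 (SE 0.16), its 95% interval was -0.20 to 0.54, and the change was 0.14 with the length trend removed.

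The peroxidases and the glutaredoxin that spend glutathione were low in 1 library. Gpx1, which reduces hydrogen peroxide and lies on chromosome 9 from 108338903 to 108340343 (plus strand), stood at 3486 and 3954 in isotype and 3717 and 2019 in anti-CD226 libraries. Gpx4, which reduces lipid peroxides and protects cells from ferroptosis, stood at 3787 and 4371 in isotype and 4167 and 2454 in anti-CD226 libraries, and Glrx, which removes glutathione from proteins, at 2962 and 3313 in isotype and 3131 and 2489 in anti-CD226 libraries. In all 3, anti-CD226 replicate 1 lay between the isotype values and replicate 2 was the lowest. For Gpx1 the value in replicate 2 was 54.3% of that in replicate 1, for Gpx4 58.9% and for Glrx 79.5%. The log2 fold change of Gpx1 was -0.44 (95% interval -1.08 to 0.20), and it was 0.0014 without anti-CD226 replicate 2. That of Gpx4 was -0.35 (-0.93 to 0.24), and 0.03 without that library. With the length trend removed the log2 fold changes of Gpx1 and Gpx4 were -0.26 and -0.19. On that scale Gpx1 stood at 3448 and 3487 in isotype and 3334 and 2530 in anti-CD226 libraries, without overlap, while the groups of Gpx4 overlapped. The processed copy Gpx4-ps2 had 273 and 310.2 against 252 and 199, so part of the Gpx4 reads may have been split.

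Of 19 other glutathione genes tested, 5 were higher and 14 lower and 0 passed either threshold. Their median was -0.14 and their median transcript length 1271 bases. Chac2, which degrades glutathione, stood at 116 and 137 against 107 and 61.7, and the microsomal transferase Mgst3 at 167 and 202 against 161 and 132.

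The thioredoxin system showed the same split by library. Txn1, the cytosolic thioredoxin, stood at 4981 and 6216 in isotype and 6035 and 3434 in anti-CD226 libraries, and Txn2, its mitochondrial relative, at 2447 and 2697 in isotype and 2575 and 2017 in anti-CD226 libraries. Both were lowest in anti-CD226 replicate 2, with Txn1 there at 56.9% of replicate 1. Txnrd1, the selenoprotein reductase that recharges Txn1, stood at 7183 and 6116 in isotype and 6882 and 7019 in anti-CD226 libraries. Its lowest value was in isotype replicate 2, so the ratio of Txn1 to Txnrd1 reads was 0.693 and 1.02 against 0.877 and 0.489. Their annotated transcripts are 1051 and 3428 bases long. The thioredoxin inhibitor Txnip, a sensor of glucose, stood at 2049 and 1961 against 1987 and 1921 and was even over the libraries.

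Of 15 other thioredoxin and methionine sulfoxide genes tested, 4 were higher and 11 lower with 0 past either threshold. Sesn1, a stress-induced partner of the peroxiredoxins, stood at 413 and 397 against 521 and 536, with both anti-CD226 values above both isotype values. Of the 15, 1 was higher and 3 lower without overlap, against 13.8% and 13% of all genes. Msrb1, a selenoprotein that repairs oxidised methionine, stood at 148 and 164 against 140.0 and 48.5, with its lowest value in anti-CD226 replicate 2.

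Peroxiredoxins reduce peroxides with a reactive cysteine that thioredoxin restores. All 6 and the sulfiredoxin Srxn1 were lower in mean in anti-CD226 (median log2 fold change -0.19), and 0 of the 7 passed either threshold. Prdx1, the abundant cytosolic form, stood at 10417 and 12142.5 in isotype and 12028 and 8063 in anti-CD226 libraries. Prdx2, also cytosolic, stood at 1968 and 2246 in isotype and 2179 and 1354 in anti-CD226 libraries, and the secretory pathway form Prdx4 at 1342 and 1477 in isotype and 1485 and 927 in anti-CD226 libraries. In these 3 the low value was in anti-CD226 replicate 2 alone, at 67.0%, 62.1% and 62.4% of replicate 1. Without that library their log2 fold changes were 0.10, 0.05 and 0.08. Prdx2 is abundant in red cells, whose marker Hba-a1 stood at 48.1 and 68.8 against 43.3 and 46.3. Another red cell marker, Hba-a2, had a different order, with 2.73 and 7.1e-14 against 13.3 and 8.7e-06. The part of red cells in the Prdx2 level was not tested. Prdx2 overlaps Junb and Rnaseh2a on the other strand. Junb had 3585 and 3571 against 3581 and 3474, and Rnaseh2a 768 and 810.5 against 855 and 669.

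Prdx5, found in mitochondria, peroxisomes and the cytosol and encoded on chromosome 19 from 6906697 to 6910106 (minus strand), was the member whose groups stood apart in the lower direction. It stood at 1129.6 and 1206 in isotype and 1053 and 801 in anti-CD226 libraries. Both anti-CD226 values were below both isotype values, but replicate 1 was close to isotype replicate 1. The log2 fold change was -0.35 (SE 0.19), and -0.16 with the length trend removed, where the groups still did not overlap. Prdx5 overlaps Trmt112 on the other strand, a gene with 991 and 1283 against 1296.5 and 912.

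The mitochondrial Prdx3 stood at 2305 and 2417 against 2456 and 2109.5 and Prdx6, which uses glutathione in place of thioredoxin, at 2885 and 3274 against 3089.8 and 2916. Both were nearly level over the libraries. Srxn1, an NRF2 target that rescues overoxidised peroxiredoxins, stood at 1029.9 and 1053 in isotype and 873 and 1123 in anti-CD226 libraries, and here anti-CD226 replicate 1 was the lowest and replicate 2 the highest. Its transcript, of 2812 bases, is the longest of the 7.

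Superoxide dismutases turn superoxide into hydrogen peroxide, and catalase breaks that down. Sod1, the copper and zinc enzyme of the cytosol, stood at 1297 and 1736 in isotype and 1476 and 871 in anti-CD226 libraries. The isotype values alone spanned 1297 to 1736, and the value in anti-CD226 replicate 2 was 59.0% of that in replicate 1. Its log2 fold change of -0.40 had a 95% interval of -1.03 to 0.23, and the change was -0.02 without anti-CD226 replicate 2. Sod2, the manganese enzyme of mitochondria, stood at 1449 and 1431 against 1510.3 and 1263, and Cat, catalase, at 1396 and 1431 against 1413 and 1278. Both were lowest in anti-CD226 replicate 2 by a small margin. Sod2 has the longest transcript of the members, 5861 bases, and with the length trend removed its log2 fold change went from -0.06 to -0.23. Sod1 overlaps Scaf4 on the other strand, which had 1122 and 847 against 955 and 1768.

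Enzymes of the pentose phosphate pathway, which make the NADPH used above and the ribose of nucleotides, were higher in mean in 2 and lower in 2, with 0 of the 4 past either threshold. G6pdx, the entry enzyme, stood at 3991 and 4220.1 in isotype and 3911 and 4486 in anti-CD226 libraries. Pgd, the second NADPH-producing step, stood at 1977 and 2042 in isotype and 1856 and 2025 in anti-CD226 libraries, and the transketolase Tkt at 4735 and 4647 in isotype and 4892 and 4713 in anti-CD226 libraries. In these 3 the groups overlapped, and Tkt had the smallest standard error of the members, with a log2 fold change of 0.03 and a 95% interval of -0.32 to 0.39. Taldo1, transaldolase, stood at 3208 and 3570.4 in isotype and 3722 and 2664 in anti-CD226 libraries, with anti-CD226 replicate 2 the lowest. Its transcript of 1296 bases is shorter than the 2218 to 3223 bases of the other 3. Of 14 further genes of this pathway and of NADPH supply, 7 were higher and 7 lower with 0 past either threshold. Nadk2, which makes NADP in mitochondria, stood at 400.0 and 385 against 452 and 431, and the transhydrogenase Nnt at 631 and 505 against 581 and 689.9.

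The ferritin chains were the most abundant members. Per kilobase of annotated transcript, the mean level over the 4 libraries was 94054 normalised reads for Ftl1, the light chain, and 32870.5 for Fth1, the heavy chain with ferroxidase activity. Prdx1 followed with 6725, Txn1 with 4916, Gpx1 with 4186 and Gpx4 with 3853. At the other end of this order were Nfe2l2 with 248, Gss with 247, Sod2 with 241 and Selenon with 28.8. Txn1, Gpx1 and Gpx4 lie closer to each other than the 4 libraries of any of them do, as do Nfe2l2, Gss and Sod2. The ferritin chains together held 0.677% to 0.773% of the signal of a library, and all 32 members 1.17% to 1.39%.

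Fth1 stood at 27458 and 33071.5 in isotype and 31795 and 29822 in anti-CD226 libraries. Ftl1, on chromosome 7 from 45457944 to 45459884 (minus strand), stood at 65508 and 73494 in isotype and 74164 and 63542 in anti-CD226 libraries. The groups overlapped in both, and the ratio of Ftl1 to Fth1 reads was 2.39 and 2.22 against 2.33 and 2.13. In log2 fold change the difference was 0.03 (95% interval -0.36 to 0.43) for Fth1 and -0.02 (-0.42 to 0.39) for Ftl1. Their transcripts are short, 929 and 735.5 bases. Ftl1 was lowest in anti-CD226 replicate 2, at 85.7% of replicate 1. Fth1 was at 93.8% of replicate 1 there and had its lowest value in isotype replicate 1. For Gpx1, Sod1 and Prdx5, anti-CD226 replicate 2 was at 54.3%, 59.0% and 76.1% of replicate 1. With the length trend removed, the log2 fold changes were 0.19 and 0.18, and both anti-CD226 values of Ftl1 were above both isotype values. Macrophages are rich in ferritin, and 12 of the 16 macrophage markers in the table were highest in anti-CD226 replicate 2. Among those with a steep difference, Chil3 stood at 19.9 and 0 against 16.5 and 784, Mmp12 at 34.3 and 2.32 against 168 and 678 and Lyz2 at 3.32 and 0.773 against 8.24 and 51.8. Other markers of the list differed little or had another order: Csf1r stood at 2.21 and 1.90 against 1.03 and 2.62, Adgre1 at 2.21 and 7.73 against 7.21 and 2.20, Apoe at 14.4 and 10.8 against 11.3 and 13.2 and Ctss at 190.1 and 230.2 against 289 and 227. The summed level of the 16 was at most 0.0166% of a library's signal, and 2 and 6 of the 16 were at 0 in the isotype libraries against 0 in the anti-CD226 libraries. Their part in the ferritin values was not tested. In bulk RNA, more cells of a type and more RNA per cell cannot be told apart. The copy Ftl1-ps1 had 3996 and 4160.1 against 4192 and 3718, so reads of Ftl1 may have been shared with it.

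Iron is imported by the transferrin receptor Tfrc, which stood at 6601 and 5114 in isotype and 5615 and 6919 in anti-CD226 libraries, with overlapping groups. The exporter Slc40a1 was at or below 5.51 in every library. Of 16 iron genes tested, 6 were higher and 10 lower with 0 past either threshold. Steap3, a reductase of endosomal iron, stood at 22.1 and 20.1 against 12.4 and 12.1, and the mitochondrial iron-sulfur protein Cisd1 at 1112 and 1298 against 1161 and 855.

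Selenon had the largest difference of the members. This selenoprotein of the endoplasmic reticulum, tied to calcium handling and to muscle disease, lies on chromosome 4 from 134537892 to 134552166 (minus strand) of GRCm38, with no other annotated gene overlapping it. It stood at 39.8 and 68.8 in isotype and 163 and 126 in anti-CD226 libraries. Both anti-CD226 libraries were above both isotype libraries. In means it had 54.3 ± 20.5 against 144 ± 26.2 (SD, n = 2). The log2 fold change was 1.43 (SE 0.32), and its 95% interval ran from 0.68 to 2.18. Its unadjusted p of 0.0023 ranked 13 among 13010 genes, and it did not pass over all genes (limma, adjusted p = 0.982).

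Selenon is also the member with the fewest reads, an estimated 36, 89, 158 and 114 in the libraries in the same order. Without isotype replicate 1, the library with the lowest value, the log2 fold change was 1.05 and the adjusted p 0.9998. Without isotype replicate 2 the adjusted p was 0.043, without anti-CD226 replicate 1 it was 0.010 and without anti-CD226 replicate 2 it was 0.0013 (limma). With the length trend removed the log2 fold change was 1.36. Its transcript is 3445 bases long.

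The other 2 selenoproteins of the endoplasmic reticulum had overlapping groups. Selenos, a part of the machinery that returns misfolded proteins to the cytosol, stood at 1899.6 and 2077 in isotype and 2125 and 1502 in anti-CD226 libraries. Selenok, which supports calcium flux in immune cells, stood at 2123 and 2616 in isotype and 2657 and 1872 in anti-CD226 libraries. Both were lowest in anti-CD226 replicate 2, as were the selenoproteins Gpx1 and Gpx4, whereas Txnrd1 was not. Of 15 other selenoproteins and genes of their synthesis tested, 6 were higher and 9 lower with 0 past either threshold. Among them Selenoh stood at 1151 and 1287 against 1287 and 667 and Selenoo at 422 and 381 against 358 and 337.

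**Figure D3:**
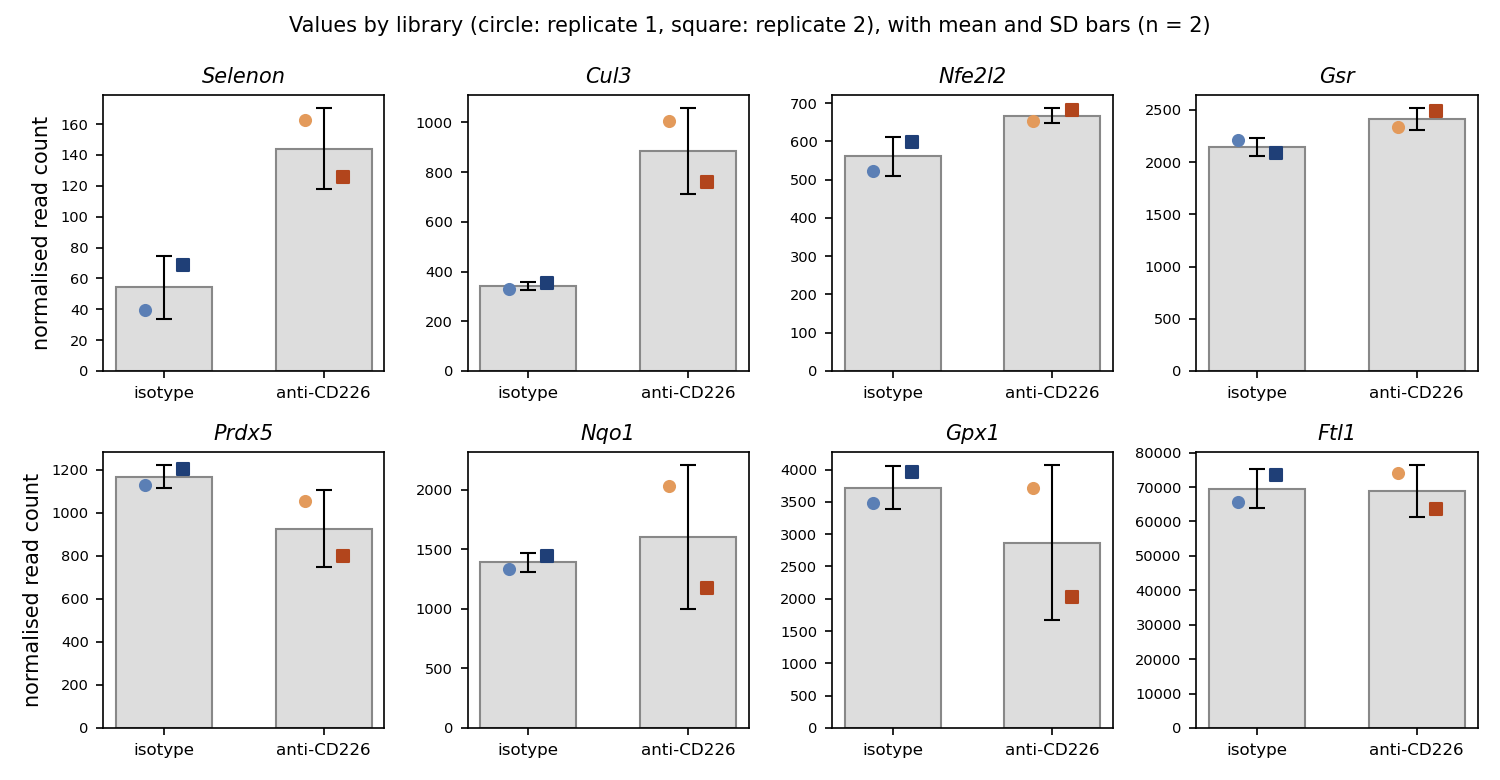
Normalised read counts of 7 members and of Cul3 by group, with a dot per library (circle, replicate 1; square, replicate 2), grey bars at the mean and black error bars of 1 SD (n = 2). Selenon and Cul3 have both anti-CD226 libraries well above both isotype libraries, whereas in Gpx1 the low mean of anti-CD226 comes from replicate 2 at 2019.

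Genes that produce oxidants were tested beside those that remove them. Of 12 fixed, 5 were tested, 4 higher and 1 lower with 0 past either threshold. Rac2, a GTPase subunit of the NADPH oxidase, stood at 10509 and 11758 against 11562 and 12374, and Cyba, its membrane subunit, at 4032 and 4722 against 4710.4 and 2841. Cybb, the catalytic subunit in phagocytes, was at 37.5 in anti-CD226 replicate 2, the library with the highest macrophage sum, and at or below 1.11 in the other 3. The part of macrophages in the level of Cybb was not tested.

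The precision sets what these comparisons could show. The 95% interval of the log2 fold change reached between 0.36 and 0.75 to either side over the members, with a median of 0.42. It held 0 in 31 of 32 members, and it lay within -1 and 1 in 29 and within -0.5 and 0.5 in 13. These intervals are for single genes and are not adjusted over the table.

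**Figure D4:**
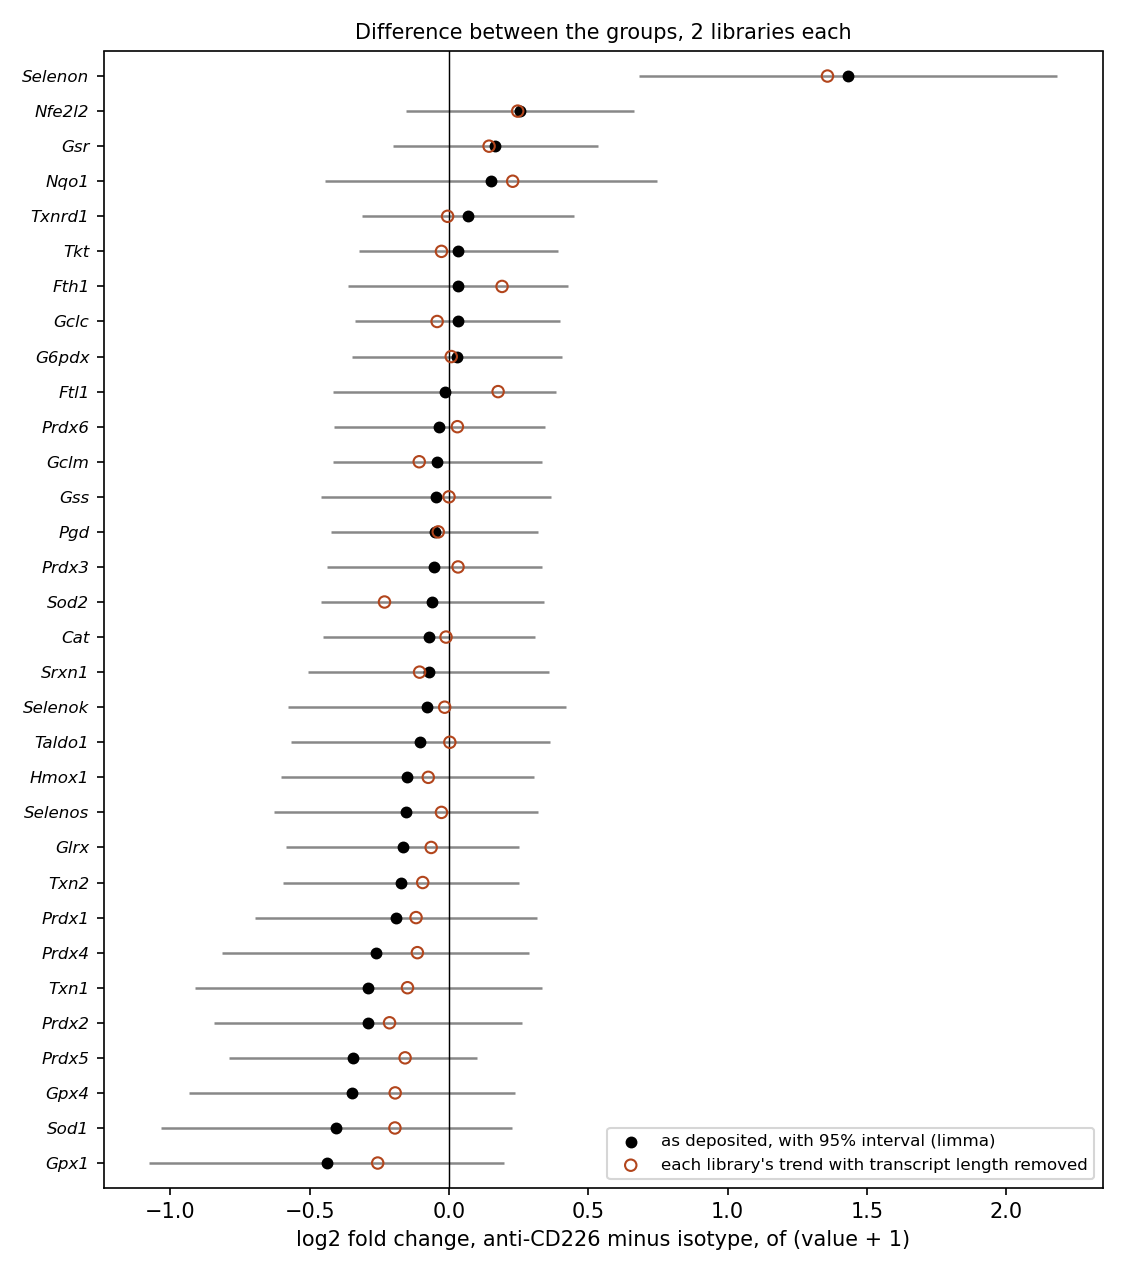
Log2 fold change (anti-CD226 minus isotype) of the 32 members in order of size, with black dots and grey 95% intervals for the deposited values and open circles after each library's trend with transcript length was removed. The interval of Selenon, 0.68 to 2.18, is the one that leaves out 0, and the open circles of Gpx1, Sod1 and Gpx4 lie closer to 0 than the black dots.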

How the data were processed

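RNA-seq of lung ILC2s gave 4 libraries, 2 per group; the labels' protocols name 10 pg as the RNA input of the low-input cDNA kit. Build mm10 and the tools STAR 2.7.8, Partek 10.0 and DESeq2 are listed per the submitters' processing notes; how reads were counted, and with which strand setting, is not given in the sources used here. Values in the table the authors deposited are normalised signal per gene. Of the values between 0.5 and 1000 times a library's step, only 73.5% to 75.1% were whole multiples of it (within 0.02). No count model was therefore run, and depth is the column total divided by that step. Of the gene columns, 206 were checked singly.

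limma 3.58.1 (R 4.3.3) tested 13010 genes, those whose mean reached 10, on log2(value + 1), a scale that understates changes of low genes. The fit used a variance trend, 2 residual and 5.81 prior degrees of freedom, two-sided p and Benjamini-Hochberg adjustment over these genes. Lengths (median of a gene's basic coding transcripts) and positions were read from GENCODE M21 (GRCm38, which mm10 is built on), with 97.3% of genes matched. The procedure was first checked on artificial data.

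The members and lists were chosen with earlier results of these data known. Named are all members, 9 related genes set by name, the 2 of smallest p in each related list, and some of the genes that overlap or copy a member. Other settings covered the pseudocount, filter, scaling, variance model, replicate block, length trend and leaving out each library.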

Additional observations from a re-analysis of the deposited data

How the results depend on the processing

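Of 16 other settings, 6 left the fold change of every member as it was. Over the others the direction of 25 of 32 members turned under at least 1, 18 of them when anti-CD226 replicate 2 was left out and 9 under a setting with all 4 libraries. Upper quartile scaling left 5 members higher in mean and gave log2 fold changes of -0.010 for Gclc, -0.011 for G6pdx, -0.0073 for Tkt and -0.0096 for Fth1. Quantile normalization gave 0.12 for Ftl1. With the length trend removed, 8 members had groups that did not overlap, and the log2 fold change was -0.043 for Gclc, -0.0052 for Txnrd1, 0.032 for Prdx3, 0.030 for Prdx6, 0.0029 for Taldo1, -0.027 for Tkt and 0.18 for Ftl1; the cause of these turns was not tested.

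Leaving out 1 library in turn, the genes called ranged from 12 to 1633, the members called from 0 to 8, the members higher in mean from 8 to 23, the members without overlap from 8 (47.6% of all genes) to 26 (82.6%), and the members' median from -0.18 to 0.05. Over the same fits the log2 fold change ranged from -0.12 to 0.025 for Gss, -0.069 to 0.13 for G6pdx, -0.10 to 0.17 for Fth1, -0.020 to 0.081 for Gclc, -0.048 to 0.18 for Txnrd1, -0.13 to 0.057 for Prdx6, -0.13 to 0.10 for Ftl1, -0.33 to 0.17 for Selenok, -0.24 to 0.55 for Nqo1, -0.25 to 0.11 for Srxn1, -0.11 to 0.011 for Pgd, -0.33 to 0.035 for Hmox1 and -0.10 to 0.019 for Gclm. It ranged from -0.88 to 0.0014 for Gpx1, -0.73 to 0.035 for Gpx4, -0.70 to 0.12 for Txn1, -0.35 to 0.0034 for Txn2, -0.48 to 0.10 for Prdx1, -0.63 to 0.052 for Prdx2, -0.16 to 0.057 for Prdx3, -0.60 to 0.077 for Prdx4, -0.19 to 0.069 for Sod2, -0.35 to 0.14 for Taldo1 and -0.40 to 0.10 for Selenos.

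Pairing of libraries by replicate number was not established. Deviations of same-numbered libraries correlated at -0.24, but with 2 libraries per group this correlation cannot show whether they shared a source. With the replicate block 20 genes were called (limma), among them 1 member, Selenon (adjusted p = 0.023), and Cul3 (adjusted p = 0.0061). With the crossed pairing, added after seeing the data, 61 genes and 1 member were called. Medians of functional groups and related lists moved by more than the spread between replicates in 21 cases, 14 with a library left out, 4 with the length trend removed and 3 under upper quartile scaling. Few reads lie behind Selenon, Bach1, Ephx1 and Steap3; reads of amplified cDNA repeat molecules, and their true error is larger than counting error.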
